A study of Homo sapiens with 27 samples.

Results

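The comparison is between U937 cells given lipopolysaccharide (LPS) after PBD150 and U937 cells given LPS alone. It uses 18 of the 27 arrays of the study, chosen by their treatment labels, with 9 arrays on each side. The 9 arrays of a side are 3 biological replicates with 3 technical arrays each. The technical arrays were averaged on the log2 scale, so that n = 3 per side, and each biological replicate is called a culture here. The labels do not say whether the replicates were grown separately, so the tests measure the spread between these samples, which may be partly technical. All 15207 genes named on the array are described.

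U937 is an established human line derived from a histiocytic lymphoma, and its cells resemble monocytes. The treatment label speaks of macrophages, but no agent that drives differentiation is mentioned. The LPS cultures received LPS at 4 µg/ml. The PBD150 plus LPS cultures received 10 µM PBD150 for 2 h and then LPS at 4 µg/ml. Untreated cultures, also 3 with 3 arrays each, received neither and serve below as the level without LPS. Cells were cultured for 48 h in every group. No culture received PBD150 without LPS, so nothing here measures what the inhibitor does to resting cells. Of 13 U937 and monocyte markers, 11 had a named probe, and none of the 11 was below the noise limit on every array of a group. They include the sialic acid receptor CD33, the neutrophil elastase gene ELANE, also listed as a granulocyte marker, and the growth factor receptor CSF1R. Signal above the noise limit does not identify the cells. None of 20 T and NK, 8 B cell and 12 granulocyte markers was below it on every array of both groups either.

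PBD150 inhibits glutaminyl cyclase, an activity that closes an N-terminal glutamine into a pyroglutamate ring. The secreted enzyme is encoded by QPCT and the Golgi enzyme by QPCTL. The ring protects several chemokines of the monocyte chemoattractant family from aminopeptidases and is needed for their full activity on CC receptors. It also forms on fractalkine, the ligand of CX3CR1, and on CD47, where it is part of the surface that SIRPA binds. The modification is made on the protein, so its loss need not be visible in RNA. LPS binds the Toll-like receptor 4 complex, which signals through NF-kB to cytokine genes and through IRF3 to interferon beta. Secreted interferon then acts back on the cells through its receptor and induces antiviral genes, many of which carry the interferon-stimulated response element in front of their start.

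No gene passed the test in this comparison. Of 30968 probes, 0 were higher and 0 were lower with PBD150 plus LPS (0% of probes in each direction, limma, adjusted p under 0.05), and the smallest adjusted p was 0.819. At an unadjusted p under 0.05 there were 561 probes higher (1.81%) and 759 lower (2.45%), or 213 genes higher (1.4%) and 295 lower (1.94%). Both directions together hold 1320 of 30968 probes, fewer than the share of 0.05 that would be expected there without any effect. The 18 arrays with a random block for each culture gave 1 call, IFIT1, at a limma adjusted p of 0.0467. That fit draws degrees of freedom from the technical arrays, and on the culture means the limma adjusted p of IFIT1 was 0.819. An exact permutation test of a single gene cannot go below p = 0.1 with 3 cultures against 3. Values below are therefore given culture by culture, and a gene is called separated where all 3 cultures of one group lay beyond all 3 of the other. By that measure 498 genes were separated and higher (3.27% of 15207) and 679 were separated and lower (4.47%). A random order of the cultures would separate a gene with probability 0.1, both directions together, and these shares stay below that. For the genes described below the limma adjusted p was 0.972 or above unless another value is given.

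The precision of the arrays sets what could have been seen. The median SD between cultures was 0.348 with LPS and 0.333 with PBD150 plus LPS (log2), against 0.153 in untreated cells. The median gene differed by -0.01 and the median absolute difference was 0.23. For 49.1% of all genes, and for 67.1% of the 9266 genes at or above the median probe, the 95% interval of the difference lay inside a 2-fold change in either direction. Differences of more than 2-fold were measured for 222 genes upward and 313 downward, but only 8 and 34 of these were among the brighter genes. LPS replicate 1 correlated with the other 5 cultures at 0.953 to 0.968 (Pearson, over probes), where the highest value between any pair was 0.976. PBD150 plus LPS replicate 3 correlated with the LPS cultures at 0.968 to 0.9745, but with the others of its own group at only 0.965. A fit with array weights gave these cultures the lowest weights, 0.468 for LPS replicate 1 and 0.480 for PBD150 plus LPS replicate 3. In 21.9% of genes the technical arrays of at least 1 culture lay more than 3 log2 units apart. Most of these were dim: among the 9151 genes at or above the median probe in the compared cultures it was 1.76%. Without PBD150 plus LPS replicate 3 the counts at an unadjusted p under 0.05 grew to 1008 higher and 1335 lower, and the smallest adjusted p was then 0.641.

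**Figure D1:**
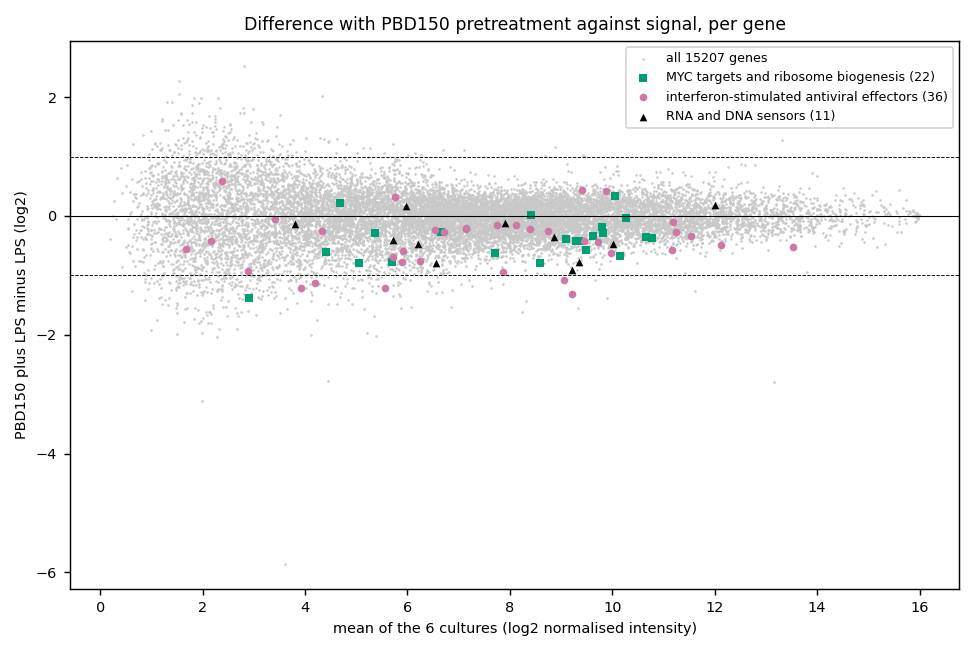
Each point is 1 of 15207 genes. The horizontal axis is its mean over the 6 cultures (log2 normalised intensity) and the vertical axis is PBD150 plus LPS minus LPS (log2), with dashed lines at a 2-fold change. The cloud narrows with signal, 34 brighter genes lie below the lower dashed line against 8 above the upper one, and most of the 36 interferon-stimulated genes and 22 MYC and ribosome genes lie below 0.

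The enzymes that PBD150 targets were read first. QPCT was a dim probe, above the noise limit on 3 of 9 LPS arrays and on 5 of 9 PBD150 plus LPS arrays. Its log2 intensity was 3.31, 3.03 and 4.32 in the LPS cultures and 3.61, 4.26 and 4.60 with PBD150. The cultures overlapped, and the difference was 0.60 ± 0.42 (SE, n = 3 per side). QPCTL measured 4.65, 4.23 and 4.62 with LPS and 4.77, 4.81 and 5.05 with PBD150, against a mean of 5.92 in untreated cells. Its 3 PBD150 cultures all lay above the LPS cultures, by 0.38 ± 0.24 on average. This separation depended on the treatment of low values. With a pseudocount of 16 added before log2, 0 of the 5 measured cyclase and substrate chemokine genes were separated and higher. Neither enzyme gene had an interval that reached a 2-fold decrease, since the lower bounds of the 95% intervals were -0.40 for QPCT and -0.19 for QPCTL.

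Among the chemokines that carry the modification, CCL2, which recruits monocytes through CCR2, had log2 intensities of 14.88, 15.07 and 15.26 with LPS. With PBD150 it measured 14.41, 14.18 and 15.43. The first and second PBD150 cultures lay below every LPS culture and the third above every one, and the difference was -0.39 ± 0.37. CCL8, another monocyte chemoattractant, measured 11.10, 12.34 and 13.29 with LPS and 11.14, 10.65 and 11.12 with PBD150, from 8.49 untreated. The PBD150 cultures were close together, and LPS replicate 1 lay at their level while the other LPS cultures were higher. The difference of CCL8 was -1.27 ± 0.54, and it was -0.75 without LPS replicate 3 and -1.84 without LPS replicate 1. CX3CL1, which encodes fractalkine, was near the noise limit at 3.52, 4.57 and 4.11 with LPS and at 4.38, 4.38 and 4.14 with PBD150. The cultures overlapped at a difference of 0.23 ± 0.32, which turned to -0.04 without LPS replicate 1. For CCL7 and CCL13 no probe was named here.

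The receptors of these ligands included the one separated gene of this family that was lower. CX3CR1, the fractalkine receptor, measured 7.95, 7.32 and 8.02 with LPS and 6.84, 6.63 and 7.30 with PBD150, from 5.62 in untreated cells. All PBD150 cultures lay below all LPS cultures, although 7.30 and 7.32 nearly touched. The difference was -0.84 ± 0.30, with a 95% interval from -1.56 to -0.12. CCR1, a receptor for several CC chemokines, measured 9.55, 9.61 and 9.95 with LPS and 8.96, 8.68 and 9.75 with PBD150, and overlapped at -0.58 ± 0.33. CCR2 differed by 0.10 ± 0.24. SIRPA, the inhibitory receptor that reads CD47, was at the top of the scale on 5 of 9 LPS arrays and on 1 of 9 PBD150 arrays, where a difference can be hidden. CD47 itself differed by -0.24 ± 0.32. Among 10 measured genes for other proteins with an N-terminal pyroglutamate, none was separated and the median difference was -0.07. The fibronectin gene FN1 was the lowest of them at -0.57 ± 0.43.

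**Figure D2:**
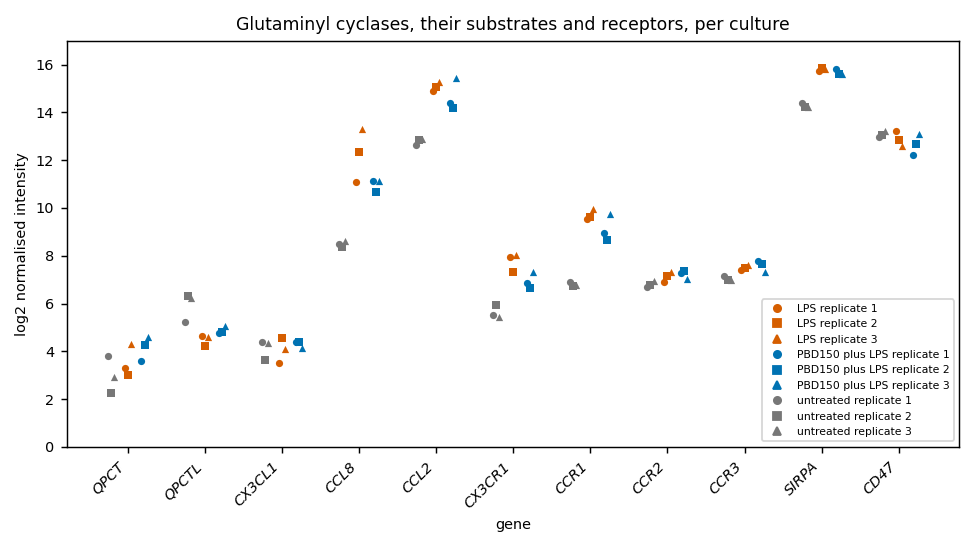
Log2 normalised intensity of the glutaminyl cyclase genes, their substrates and the substrates' receptors in each culture (points; shapes mark replicate numbers). Each gene is read across its 3 groups only, since different probes cannot be compared in level. The PBD150 cultures lie below the LPS cultures for CX3CR1 and above them for QPCTL, and the groups overlap for the other 9 genes.

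Lower values with PBD150 were common among the interferon-stimulated antiviral effectors. Of 41 listed genes 36 were measured, and 32 of these lay below 0 (88.9%, against 50.8% of all genes). Of the 36, 9 were separated and lower (25%, against 4.47% of all genes) and 0 were separated and higher. The median difference was -0.42, against -0.01 over all genes. In RNA taken from a whole culture, fewer cells expressing a gene and less RNA per cell cannot be told apart.

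Sequence in front of these genes shows what they share. The core of the interferon-stimulated response element, GAAANNGAAA on either strand, was searched in RefSeq promoter windows (GRCh38.p14) running from 250 bases before to 50 bases after each start site. It occurred in 3.57% of 35116 windows and in 4% of 12207 measured genes with a window. Among the antiviral effectors it occurred in 25 of 30 genes with a window (83.3%). It was in 4 of the 6 separated genes with a window and in 21 of the other 24, so the letters did not mark out the separated genes within the list. A match describes the letters only and is no evidence of binding in these cells.

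Stretches upstream of the start site are printed for 4 separated genes and 1 that overlapped, with the core matches in capitals, from the strand of the gene. IFIT1, IFIT3 and IFIH1 were separated effectors or sensors, CXCL10 was the separated chemokine, and ISG15 was an effector whose cultures overlapped.
IFIT1 (chr10:89392481-89392553, plus strand): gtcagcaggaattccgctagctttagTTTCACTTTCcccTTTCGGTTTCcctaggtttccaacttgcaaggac
IFIT3 (chr10:89327815-89327908, plus strand, the first of its 2 start sites): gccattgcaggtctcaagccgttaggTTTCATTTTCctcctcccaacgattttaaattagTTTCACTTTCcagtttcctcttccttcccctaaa
IFIH1 (chr2:162318804-162318869, minus strand): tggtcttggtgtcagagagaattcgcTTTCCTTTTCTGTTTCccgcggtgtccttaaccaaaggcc
CXCL10 (chr4:76023685-76023744, minus strand): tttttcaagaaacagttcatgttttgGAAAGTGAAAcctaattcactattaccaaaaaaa
ISG15 (chr1:1013358-1013423, plus strand): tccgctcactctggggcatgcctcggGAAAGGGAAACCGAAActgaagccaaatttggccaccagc
The 2 cores of IFIH1 overlap, as do those of ISG15, and each pair is printed as one run of capitals. IFIT1 and IFIT3 each hold 2 separate cores, in the opposite orientation to those of ISG15.

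IFIT1 encodes a protein that binds viral RNA lacking host cap methylation. Its log2 intensity was 9.75, 9.80 and 10.05 with LPS and 8.56, 8.19 and 8.92 with PBD150, from 6.27 in untreated cells. The groups did not overlap, and the PBD150 cultures remained above the untreated mean. The difference was -1.31 ± 0.27 (95% interval -1.95 to -0.68, limma adjusted p = 0.819). Leaving out any 1 culture gave -1.49 to -1.13.

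Its neighbours in the IFIT cluster had the same order of values. IFIT2, which also binds RNA, measured 6.40, 5.78 and 6.29 with LPS and 4.76, 4.66 and 5.43 with PBD150. Its untreated mean was 1.58 and its difference was -1.21 ± 0.31. IFIT3, their partner in a complex, measured 9.14, 9.77 and 9.91 with LPS and 8.79, 8.03 and 8.75 with PBD150, a difference of -1.08 ± 0.33. For both genes every LPS culture lay above every PBD150 culture.

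SAMD9L, an antiviral factor that restrains translation, measured 8.07, 8.34 and 8.61 with LPS and 7.45, 7.17 and 7.55 with PBD150. The difference was -0.95 ± 0.25 on its brightest probe, but 0.32 on its other probe, so the 2 probes disagree in direction. MX2, a dynamin-like GTPase that blocks nuclear entry of viral complexes, measured 11.51, 11.37 and 11.45 with LPS and 10.89, 10.81 and 10.92 with PBD150. The spread within each group was smaller than the gap between them, the difference was -0.57 ± 0.21, and the untreated mean of 11.45 was at the LPS level. The other 4 separated effectors were HERC6 at -0.77, IFI44 at -0.93, OAS2 at -1.13 and PARP9 at -0.76, and these 4 were picked out after their values were seen. IFI44 was above the noise limit on 4 of 9 LPS arrays and on 2 of 9 PBD150 arrays.

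Other effectors overlapped or lay above 0. ISG15, a ubiquitin-like modifier, measured 13.50, 13.64 and 14.21 with LPS and 13.69, 12.93 and 13.16 with PBD150, a difference of -0.53 ± 0.31 with overlap. PLSCR1 lay at 0.43 ± 0.35 and BST2, the tether that holds budding virus at the cell surface, at 0.42 ± 0.98. BST2 measured 7.17 in LPS replicate 1 against 11.03 and 10.83 in the other LPS cultures, and 9.97, 9.96 and 10.34 with PBD150. ISG15, PLSCR1 and BST2 were also chosen after their values were seen.

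LPS replicate 1 moved this list. The list median in each culture, as a deviation from each gene's mean over the 6 cultures, was -0.02, 0.41 and 0.39 with LPS and -0.15, -0.32 and -0.22 with PBD150. The groups did not overlap, and LPS replicate 1 was the LPS culture nearest to the PBD150 cultures. Without it 23 of 36 effectors were separated and lower (63.9%, against 9.59% of all genes) and the list median was -0.67. Without LPS replicate 3 the median was -0.27 with 9 separated (25%, against 9.91% of all genes), and without PBD150 plus LPS replicate 3 it was -0.45 with 15 separated (41.7%, against 16% of all genes). The share of the result that comes from the state of LPS replicate 1 was not tested.

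The sensors that detect viral nucleic acid had lower values with PBD150 as well. Of 11 measured RNA and DNA sensors, 9 lay below 0 and 3 were separated and lower (27.3%, against 4.47% of all genes), with a median difference of -0.40. With the median of each culture's technical arrays in place of their mean, the list's median was -0.22 with 4 separated and lower. IFIH1, the cytosolic RNA sensor MDA5, measured 9.91, 9.58 and 9.69 with LPS and 9.09, 8.73 and 9.06 with PBD150, from 7.75 untreated. The lowest LPS culture lay clear of the highest PBD150 culture, and the difference was -0.77 ± 0.23. TLR7, the endosomal receptor for single-stranded RNA, measured 6.66, 7.15 and 7.06 with LPS and 5.81, 6.22 and 6.45 with PBD150. Its difference was -0.80 ± 0.28, and its other probe gave -0.96. The third separated sensor was DHX58, a regulator of RIG-I-like receptors, at -0.35 ± 0.23, which lies outside the rule for named genes and was picked out after its value was seen.

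Among the sensors that were not separated, IFI16, a nuclear DNA sensor, measured 9.83, 9.79 and 9.39 with LPS and 8.47, 8.40 and 9.41 with PBD150. Only PBD150 plus LPS replicate 3 reached the LPS range, and the difference was -0.91 ± 0.34. AIM2, which nucleates an inflammasome on cytosolic DNA, differed by -0.48 ± 0.28 with overlap. STING1, the adaptor of the DNA sensor CGAS, differed by 0.19 ± 0.28, CGAS itself by 0.17 ± 0.24, and both overlapped.

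**Figure D3:**
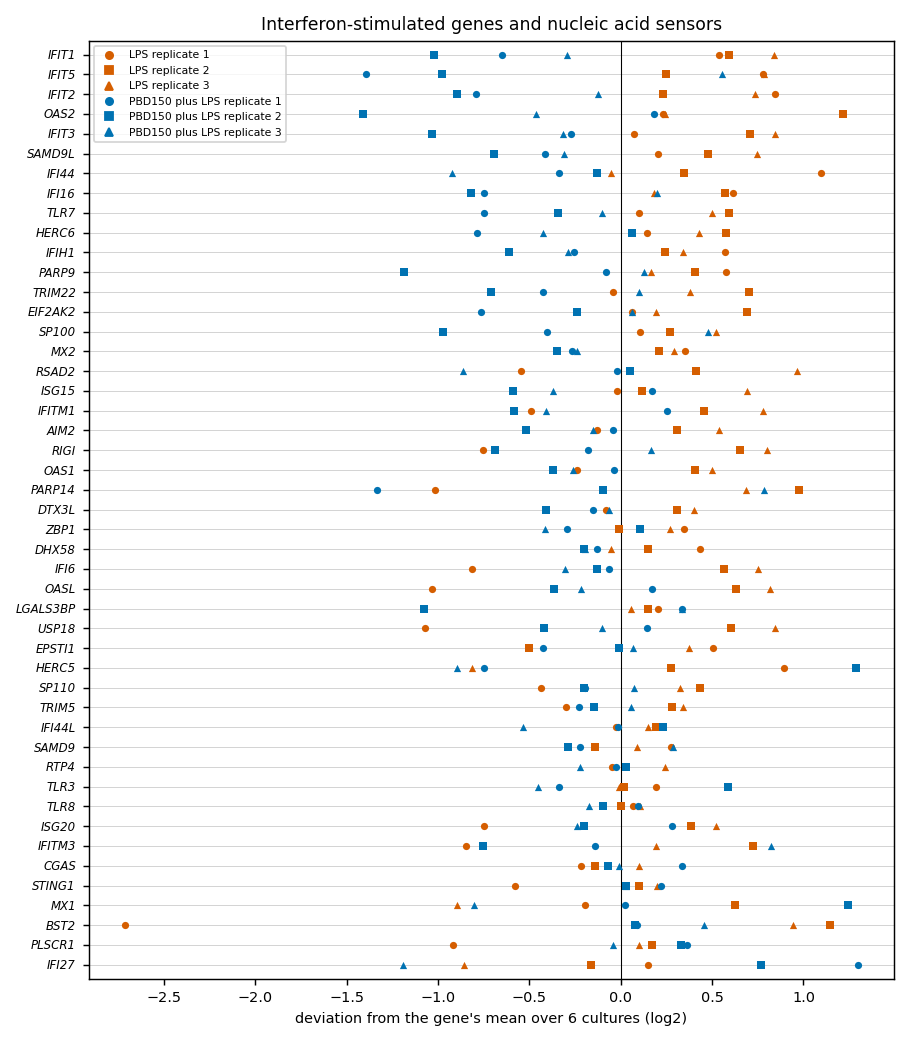
Rows are the 36 interferon-stimulated effectors and 11 nucleic acid sensors, ordered by their difference. Points are the 6 cultures, as the deviation of each from the gene's mean over the cultures (log2). LPS cultures lie to the right of PBD150 cultures in the upper rows; in many of the middle rows LPS replicate 1 (round, orange) lies among the PBD150 cultures, and for BST2 it lies far to the left of the other 5.

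Of 17 measured interferon receptors, STATs and IRFs, 0 were separated in either direction, where 3.27% of all genes were separated and higher and 4.47% lower. Their median difference was 0.12, and without LPS replicate 1 it was -0.04 with 13 of 17 below 0 (76.5%, against 50.4% of all genes). IRF7, the factor that amplifies interferon production, measured 10.93, 10.88 and 11.23 with LPS and 10.96, 10.14 and 10.61 with PBD150, a difference of -0.45 ± 0.29. IRF9, a DNA-binding factor of the interferon response, differed by -0.38 ± 0.29. IFNB1, the interferon beta gene, differed by -0.01 ± 0.32 with all 6 cultures between 4.06 and 5.13. This was a dim probe near the noise limit, where a difference can be hidden. Of 12 genes of the interferon gamma and antigen presentation list, 1 was separated and lower (8.33%, against 4.47% of all genes), GBP1 at -0.38 ± 0.23, and the median was -0.06.

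Lower values were also measured for 3 interferon-induced genes of other lists. CXCL10, which attracts T cells through CXCR3, measured 8.16, 8.31 and 8.46 with LPS and 7.69, 7.66 and 7.25 with PBD150, from 5.68 untreated. It was the 1 separated gene of the 17 other chemokines (5.88%, near the 4.47% of all genes), with a difference of -0.77 ± 0.24, while the list's median difference was 0.08. TNFSF10, which encodes the death ligand TRAIL, measured 8.52, 9.08 and 8.91 with LPS and 8.11, 8.19 and 8.53 with PBD150. Its groups overlapped only between 8.52 and 8.53, and the difference was -0.56 ± 0.26. SIGLEC1, an interferon-induced sialic acid receptor of macrophages, was at -0.70 ± 0.30 and separated, the 1 separated and lower gene of 25 macrophage surface receptors (4%, against 4.47%).

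A second group with lower values was that of MYC targets and ribosome biogenesis, nucleolar and growth genes that LPS-treated cultures already held below the untreated level. The list's median level was 11.30 in untreated cells, 9.39 with LPS and 8.99 with PBD150 (log2 intensity, over the same probes). Of 22 measured genes 19 lay below 0, 7 were separated and lower (31.8%, against 4.47% of all genes) and 0 were separated and higher. The median difference was -0.37. In each culture the list median lay at 0.22, 0.17 and 0.13 with LPS and at -0.15, -0.34 and -0.06 with PBD150, with no overlap. Leaving out 1 culture gave medians of -0.48 to -0.33.

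POLR1B, the second largest subunit of RNA polymerase I, measured 9.40, 8.92 and 8.64 with LPS and 7.92, 8.38 and 8.31 with PBD150, from 11.66 untreated. The difference was -0.78 ± 0.29 and the groups did not overlap. DKC1, the pseudouridine synthase of small nucleolar ribonucleoproteins, measured 10.21, 9.54 and 9.56 with LPS and 9.05, 9.14 and 9.38 with PBD150, a difference of -0.58 ± 0.28. CAD, which starts pyrimidine synthesis, was at -0.63 ± 0.31, with its lowest LPS culture at 7.67 and its highest PBD150 culture at 7.63. NIP7, a factor of large subunit assembly, was at -0.80 ± 0.32 and overlapped.

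NOLC1, NCL, LYAR and GNL3, nucleolar proteins outside the rule for named genes and picked out after their values were seen, completed the 7 separated genes at -0.42, -0.36, -0.34 and -0.29. Their differences were small, and so was their spread: NOLC1 measured 9.55, 9.60 and 9.54 with LPS and 9.21, 9.11 and 9.12 with PBD150. MYC itself was at 4.24, 3.58 and 2.94 with LPS and 1.65, 2.01 and 2.98 with PBD150, against 7.35 in untreated cells. Its difference was -1.38 ± 0.46, but the probe was above the noise limit on 3 of 9 LPS arrays and 1 of 9 PBD150 arrays, and the cultures overlapped. The E-box CACGTG, the site that MYC binds, occurred in the promoter window of 10 of 18 listed genes (55.6%) against 11.3% of measured genes. It occurred in 2 of the 6 separated genes with a window and in 8 of the other 12, so it did not mark out the separated genes within the list.

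**Figure D4:**
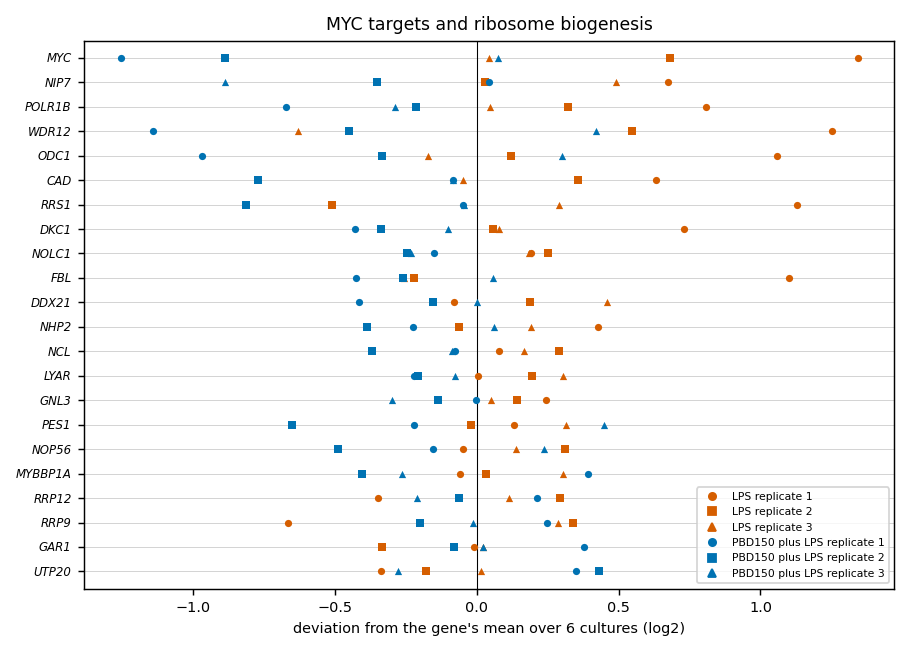
Rows are the 22 measured MYC targets and ribosome biogenesis genes, ordered by their difference, and points are the 6 cultures as the deviation from each gene's mean (log2). In 7 rows every LPS culture lies to the right of every PBD150 culture, and LPS replicate 1 lies farthest to the right in most of the upper rows.

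Genes of DNA replication and mitosis were also mostly below 0, but their values rested on LPS replicate 1. Of 33 replication genes 26 lay below 0 with a median of -0.25, and without that culture 19 did with a median of -0.08. Of 24 mitosis genes 20 lay below 0 with a median of -0.21, and without it 13 did with a median of -0.03. LPS replicate 1 held list medians of 0.38 for replication and 0.65 for mitosis, above the other 5 cultures, which lay between -0.24 and 0.04. Of the replication genes 2 were separated and lower (6.06%), and of the mitosis genes 1 (4.17%), near the 4.47% of all genes. GINS2, a subunit of the replicative helicase, was separated at -0.64 ± 0.27 and CDC45, its partner, at -0.37 ± 0.22. Their second probes gave 0.04 and 0.57. Among mitosis genes KIF23, a motor of cytokinesis, was separated at -0.46 ± 0.31.

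The lowest difference of each of these lists came with a wide spread. ORC6, a subunit of the origin recognition complex, measured 6.91, 6.04 and 2.41 with LPS and 2.83, 3.81 and 2.69 with PBD150, a difference of -2.0 ± 1.1. BUB1B, a spindle checkpoint kinase, measured 7.54, 6.01 and 6.37 with LPS and 5.77, 3.46 and 6.07 with PBD150, a difference of -1.54 ± 0.75. Single cultures moved both: the difference was -1.11 for ORC6 without LPS replicate 1 and -0.72 for BUB1B without PBD150 plus LPS replicate 2.

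The inflammatory lists had medians near 0. The median difference was -0.06 over 16 inflammatory cytokines, -0.02 over 20 NF-kB subunits and feedback genes, -0.09 over 14 genes of the Toll-like receptor 4 complex and its adaptors, and -0.03 over 24 matrix protease genes. The cytokines depended on LPS replicate 1: without it 6 of 16 were separated and lower (37.5%, against 9.59% of all genes), with a median of -0.15. TLR4, the LPS receptor, measured 8.17, 8.14 and 8.52 with LPS and 7.94, 7.71 and 7.85 with PBD150, a separated difference of -0.45 ± 0.23. NFKB1, which encodes the p50 precursor, was separated and lower at -0.53 ± 0.26. NFKB2, which encodes the p52 precursor, was separated and higher at 0.47 ± 0.23, with 5.14, 5.52 and 5.45 with LPS and 5.91, 5.90 and 5.70 with PBD150. So 1 of 20 NF-kB genes was separated and lower (5%, against 4.47% of all genes) and 1 higher (5%, against 3.27%). Of the 14 Toll-like receptor 4 genes 1 was separated and lower (7.14%, against 4.47%) and 0 higher. With each array centred on its median, or with the median of the technical arrays, 0 NF-kB genes were separated and lower.

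Of the cytokines, OSM, which encodes oncostatin M, measured 9.99, 9.60 and 9.01 with LPS and 9.76, 10.10 and 10.16 with PBD150, a difference of 0.48 ± 0.31. IL6, a dim probe, measured 2.59, 4.32 and 4.76 with LPS and 4.52, 4.98 and 4.57 with PBD150, and its difference of 0.80 ± 0.56 dropped to 0.15 without LPS replicate 1. IL12B was separated and lower, but was above the noise limit on 1 LPS array and on none with PBD150, so no fold is given. IL1B was at the top of the scale on all arrays of both groups, so a difference could not be measured. CCL24, an eosinophil attractant, had LPS replicate 1 at 3.11 and the other cultures of both groups between 5.67 and 6.96.

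Among matrix proteases PLAUR, the urokinase receptor, measured 14.53, 15.11 and 15.03 with LPS and 15.21, 15.22 and 15.29 with PBD150. It was separated and higher by 0.35 ± 0.25. MMP12, the macrophage elastase, measured 6.42, 4.44 and 4.72 with LPS and 2.56, 4.18 and 4.38 with PBD150, a separated difference of -1.49 ± 0.68. Its PBD150 values lay around the noise limit. It was the 1 separated and lower gene of the 24 (4.17%, against 4.47% of all genes). With the median of the technical arrays 0 of the 24 were separated and lower. Without LPS replicate 1 the difference of MMP12 was -0.87 and without PBD150 plus LPS replicate 1 it was -0.91. SPP1, which encodes osteopontin, was at -0.37 ± 0.26 and overlapped.

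The alarmin S100A8 could not be compared. It was at the top of the scale on 6 of 9 LPS and on 3 of 9 PBD150 arrays, and above the noise limit on 8 and 7. In each of 4 cultures, LPS replicate 2 and the 3 with PBD150, 1 technical array lay at 3.21 to 3.88 and the other 2 at 15.71 or above. A culture mean then averages arrays across the scale, so no difference is given. Its partner S100A9 was near the top of the scale in all 6 cultures, at 15.90 or above, where a difference can be hidden. S100A12 differed by 0.43 ± 0.35. The list of 11 S100 proteins and annexins had a median of 0.06.

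Macrophage receptors had a median difference of 0.03 over 25 genes. The integrin gene ITGAX measured 14.78, 15.18 and 14.86 with LPS and 15.55, 15.48 and 15.04 with PBD150, a difference of 0.42 ± 0.26 with overlap. The signalling adaptor TYROBP was separated by 0.09 ± 0.21, near the top of the scale, and was picked out after its value was seen. CD14, the LPS co-receptor, was also near the top of the scale, between 15.75 and 15.94 in all 6 cultures.

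**Figure D5:**
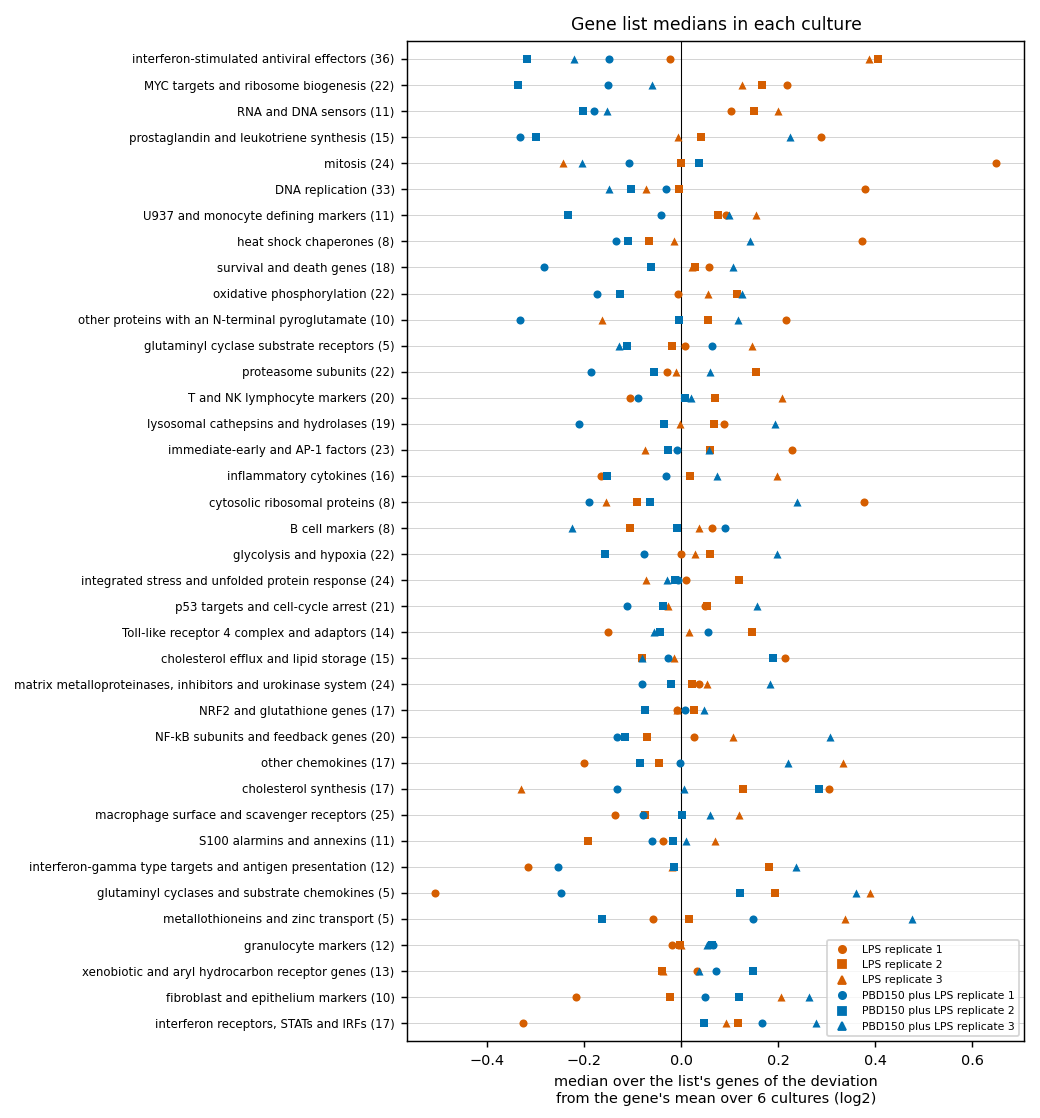
Each row is 1 of 38 gene lists with the number of measured genes. Points are the median over the list of the deviation from each gene's mean over 6 cultures (log2), 1 point per culture. The cultures of the groups do not overlap for 5 lists: interferon-stimulated effectors, MYC targets and RNA and DNA sensors are lower with PBD150, and granulocyte markers and xenobiotic genes are higher by smaller steps.

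Over the 38 lists, the culture medians were separated and lower with PBD150 for 3, separated and higher for 2, and overlapping for 33. A separation of 3 cultures against 3 has an exact two-sided permutation p of 0.1. A few of 38 lists could therefore separate by the order of the cultures alone, and the count was not tested. The 2 higher lists were 13 xenobiotic and aryl hydrocarbon receptor genes, with a median of 0.24, and 12 granulocyte markers, with a median of 0.17. CYP1A1, the monooxygenase that the aryl hydrocarbon receptor induces, measured 8.56, 8.13 and 8.30 with LPS and 8.71, 8.79 and 9.36 with PBD150, from 7.04 untreated. It was separated and higher by 0.62 ± 0.27, while AHR, the receptor, was separated and lower by -0.46 ± 0.24. NR1I3, a nuclear receptor outside the rule and picked out after its value was seen, was separated at 0.24 ± 0.21. No granulocyte marker was separated on its own.

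Among the markers of other cell types, 10 of 20 T and NK cell markers lay below 0 and the median was -0.06. Of these 20, 2 were separated and lower (10%, against 4.47% of all genes). CD2, an adhesion receptor, was separated at -0.38 ± 0.22, as was the costimulatory receptor CD28, a dim probe, at -0.46 ± 0.28. Of 8 B cell markers 2 were separated and lower (25%, against 4.47%) and 1 higher (12.5%, against 3.27%). MS4A1, which encodes CD20, measured 8.02, 7.34 and 8.09 with LPS and 7.19, 6.94 and 6.94 with PBD150, a difference of -0.79 ± 0.28. CR2, the complement receptor, was at -0.75 ± 0.29 and PAX5, a B cell transcription factor, at 0.67 ± 0.23, both separated and in opposite directions. PAX5 was above the noise limit on 2 of 9 LPS and 4 of 9 PBD150 arrays. Of 11 U937 markers 2 were separated and lower (18.2%, against 4.47%): CD33 was separated at -0.29 ± 0.21 and PRTN3, which encodes proteinase 3, at -0.38 ± 0.22. Of 10 fibroblast and epithelium markers 8 lay above 0 with a median of 0.17, none was separated and 2 were not above noise in either group. Of the 12 granulocyte markers 9 lay above 0, and the part of these markers in the results above was not tested.

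Outside the lists, the genes with the largest moderated statistics were read among those that were separated and at or above the median probe in the higher group. LXN, which encodes the carboxypeptidase inhibitor latexin, measured 5.96, 6.31 and 6.26 with LPS and 4.37, 4.48 and 4.65 with PBD150, from 5.09 untreated. The groups lay well apart and the difference was -1.68 ± 0.23 (limma adjusted p = 0.819). LIM2, a lens membrane protein gene, measured 9.90, 10.09 and 10.31 with LPS and 8.76, 8.33 and 8.57 with PBD150, from 9.18 untreated, a difference of -1.55 ± 0.24. For both genes the untreated mean lay between the groups. In PBD150 plus LPS replicate 2 the technical arrays of LIM2 spanned 7.18 to 10.58.

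SLC25A27, a mitochondrial carrier gene, measured 6.20, 6.19 and 6.18 with LPS and 4.58, 3.64 and 4.47 with PBD150, a difference of -1.96 ± 0.31. Its 3 arrays of PBD150 plus LPS replicate 2 ran from 0 to 6.77. PEAK3, a pseudokinase gene, was at -1.24 ± 0.22, ADAM22, a catalytically inactive ADAM family gene, at -1.53 ± 0.27, and TMEM98, a membrane protein gene, at -1.28 ± 0.23. PRUNE2 was at -1.35 ± 0.25. In PBD150 plus LPS replicate 2 the arrays spanned 2.59 to 7.16 for ADAM22 and 1.90 to 7.07 for PRUNE2. For LIM2 and these 5 genes the limma adjusted p was 0.819. RGS5, a regulator of G protein signalling, was at -1.07 ± 0.25 (limma adjusted p = 0.897). KRT38, a hair keratin gene, was above the noise limit on 5 of 9 LPS arrays and on none with PBD150 (limma adjusted p = 0.819). The bound from the culture means is at least 5.65-fold lower, but these means average arrays across the scale. Its technical arrays ran from 3.27 to 10.56 in LPS replicate 1, 0 to 10.06 in replicate 2 and 2.91 to 10.67 in replicate 3. Its LPS cultures lay far apart at 7.66, 3.98 and 7.97, and untreated cultures at 6.63, 4.16 and 0.45.

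Among the higher genes FABP6, which encodes an intracellular bile acid carrier, measured 10.05, 10.17 and 10.36 with LPS and 11.05, 10.80 and 10.77 with PBD150, from 6.69 untreated. The groups were separated and the difference was 0.68 ± 0.23, so PBD150 cultures lay farther from the untreated level than LPS cultures did. HIPK2, a nuclear kinase, measured 7.34, 7.38 and 8.09 with LPS and 8.57, 8.42 and 8.78 with PBD150, a difference of 0.99 ± 0.29. LINC01587, a long noncoding RNA, was at 1.21 ± 0.28 (limma adjusted p = 0.897), but its other probe gave 0.33. PKP4, a junction protein, was at 0.77 ± 0.27 and its other probe gave -1.03. IMPG2, KRTAP1-5, TLCD3B, NPY6R, ZNF542P and ANGPT4 lay between 0.69 and 0.97, and all 6 were separated. The difference of IMPG2 rested on single arrays: with the median of the technical arrays in place of their mean, an alternative chosen after seeing the data, it turned to -0.35.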

How the data were processed

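Per the labels, RNA (2.5 µg per array) was amplified, coupled to Cy5 and hybridised to Human OneArray slides, 1 colour per array. The values deposited by the authors are a linear intensity for each of 30968 probes and 27 arrays. Some lie below 0, so background had been subtracted. How this was done is not given in the sources used here. For log2, values under 1 were set to 1, and quantile normalisation covered all 27 arrays. Array medians were 41.5 to 100.3 intensity units. On an array, 69% to 77.8% of probes exceeded the noise limit, which is 3 times the root mean square of the values below 0. The number of arrays limits the precision.

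The averaged technical arrays gave 6 cultures, to which limma 3.58.1 (R 4.3.3) was fitted without a replicate block. Tests were two-sided with moderated variances, and p-values were adjusted by Benjamini and Hochberg's method over all 30968 probes. Untreated cultures were left out of the fit because their spread was smaller. The fit was tested on simulated data.

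Probe names are those of the platform annotation, brought up to date with RefSeq: 14670 were current, 2645 were updated and 82 stayed unmatched, while 13571 probes were unnamed here. The brightest named probe stands for a gene. Genes could be named if they encode the cyclases or their chemokine substrates, were among the 10 with the largest statistic in each direction (separated, and at or above the median probe in the higher group), or were among the 5 of a list with the smallest p. Genes outside this rule (HERC6, IFI44, OAS2, PARP9, ISG15, PLSCR1, BST2, DHX58, STING1, CGAS, IFNB1, NOLC1, NCL, LYAR, GNL3, IL1B, S100A9, CD14, TYROBP, NR1I3, ELANE and CSF1R) were picked after their values were seen. A probe below the noise limit on every array of a group gives a bound: its values are raised to that limit before the fold against the other group is taken. The members and lists were chosen with earlier results of these data known, and the lists were not tested as sets. The alternatives are named in the closing section.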

Additional observations from a re-analysis of the deposited data

How the results depend on the processing

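The count of probes at an adjusted p under 0.05 stayed at 0 in both directions under all alternatives run except for 2. The 18 arrays with the culture as a random block (correlation 0.272) gave 1 lower, IFIT1. That fit applies the same correlation to every probe and draws degrees of freedom from technical arrays, so its call does not rest on cultures alone. The median of the technical arrays in place of their mean, chosen after seeing the data, gave 1 higher, an unnamed probe above noise on 2 LPS arrays and on none with PBD150. The smallest adjusted p was 0.414 with all 9 cultures in the fit, 0.354 with array weights, 0.106 without LPS replicate 1 and 0.063 without LPS replicate 2. Probes higher at an unadjusted p under 0.05, 561 in the report, numbered 349 on values as deposited, 269 with a pseudocount of 16, 267 with only probes above noise, 329 with an intensity trend and robust prior, and 1067 with array weights. They ranged from 505 to 1008 with 1 culture left out. Probes lower, 759 in the report, numbered 1493 with array weights and 552 to 1335 with 1 culture left out.

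As deposited, without scaling, the median of all genes was -0.17 in place of -0.01, and 1.26% of genes were separated and higher and 9.05% lower. Separated and lower were then 14 of 36 interferon effectors and 6 of 11 sensors. CCR2 turned to -0.0257 there. Without LPS replicate 1, CCL24 (-0.19), CCR2 (-0.00866) and CX3CL1 (-0.0441) changed sign. IMPG2 turned to -0.349 with the median of the technical arrays, where PKP4 was at 1.24, IL6 at 0.45 and TLCD3B at 0.44. Leaving out any 1 culture gave up to 1.74, 0.20 and 0.48 for CCL24, CCR2 and CX3CL1. Of 1526 combinations of 90 genes and a setting, 1520 had the direction and the side of the threshold reported, 5 changed sign and 1 passed the threshold. No gene passed in the main fit, and many of the 90 were picked by their values in these data. The count therefore reflects little more than kept signs and is no measure of robustness. Sizes could move widely, as for MSMO1, at 0.05 to 1.94 with 1 culture left out. The cause of these changes was not tested.

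The replicate block gave 0 higher and 0 lower at an adjusted p under 0.05 and a smallest adjusted p above 0.999. Deviations of same-numbered cultures correlated at -0.219, -0.00597 and -0.16, and those of differently numbered cultures at -0.0683 to 0.189. The correlations are tied to one another, because each deviation is taken from its group's mean. Whether the numbers mark a shared day therefore cannot be told from them.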

Other observations

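The lists of cholesterol efflux and cholesterol synthesis had medians near 0, at 0.08 each, and proteasome subunits had a median of -0.17. Of 15 genes of cholesterol efflux and lipid storage 2 were separated and lower (13.3%, against 4.47% of all genes). ACSL1, which activates long-chain fatty acids, measured 15.53, 15.44 and 15.34 with LPS and 15.06, 14.98 and 14.71 with PBD150, a difference of -0.52 ± 0.22 (SE, n = 3 per side). PLIN2, which coats lipid droplets, measured 12.29, 12.29 and 12.33 with LPS and 12.05, 11.94 and 12.03 with PBD150, so that its PBD150 cultures lay at or near the untreated mean of 11.94. Of 22 proteasome subunits 16 lay below 0 (72.7%, against 50.8% of all genes) and 2 were separated and lower (9.09%, against 4.47%). These were PSMA5 at -0.34 ± 0.22 and PSMB7 at -0.29 ± 0.22, both core particle subunits. With each array centred on its median 0 of the 22 were separated and lower. Of 17 cholesterol synthesis genes none was separated, and the widest, MSMO1, had LPS replicate 1 at 6.06 and the other cultures of both groups between 8.97 and 9.86. None of these genes passed over all probes (limma adjusted p = 0.972 for ACSL1).

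Stress and survival genes were likewise mixed. BCL2, which blocks mitochondrial apoptosis, was separated and lower at -0.54 ± 0.30, and CASP1, the inflammasome protease, at -0.39 ± 0.22, with its other probe at -0.34. BTG2, an antiproliferative p53 target, was separated and higher at 0.39 ± 0.25. FOSL1, an AP-1 subunit, was separated and lower at -0.59 ± 0.27, but at -0.18 with the median of the technical arrays. PTGER2, a prostaglandin E2 receptor, measured 7.72, 7.03 and 7.06 with LPS and 6.49, 6.30 and 6.87 with PBD150, from 9.45 untreated. Over 24 genes of the integrated stress and unfolded protein responses the median was -0.11, and over 8 heat shock genes it was -0.07.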
